A study of Mus musculus with 24 samples.

Results

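The 10 genes described here encode transcription factors of naive pluripotency and were followed through the exit of mouse embryonic stem cells from self-renewal. They are Klf2, Klf4, Klf5, Esrrb, Tfcp2l1, Tbx3, Zfp42, Prdm14, Nr0b1 and Nr5a2. They were chosen by name, as factors known for this state, with earlier results of these data known, and they are 10 of the 53379 genes in the tables. All 10 had enough counts to be tested, among 19470 genes that did. Each is a protein-coding gene, and on the mm10 build they lie on chromosomes 1 (Tfcp2l1, Prdm14, Nr5a2), 4 (Klf4), 5 (Tbx3), 8 (Klf2, Zfp42), 12 (Esrrb), 14 (Klf5) and X (Nr0b1).

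RNA was sequenced from 10 libraries of the E14Tg2a.IV mouse embryonic stem cell line, in 5 groups of 2. Undifferentiated wild-type (WT) cells were taken at day 0. Embryoid bodies of WT, Smad2-/-, Smad3-/- and Smad2/3DKO (double knockout) genotype were taken at day 4. Embryoid bodies are aggregates in which stem cells differentiate, here in medium without the cytokine LIF, and SMAD2 and SMAD3 are the transcription factors that carry Nodal, Activin and TGF-beta signals to the nucleus. Knockout cells were sampled at day 4 alone, so a level in a knockout at day 4 can be set against WT day 0 only across genotypes. File names give each knockout a single line number, so a genotype and its cell line cannot be told apart. No source used here says whether the 2 libraries in each group were separate cultures, so the p-values cover a spread that may be technical.

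In the naive state, which corresponds to the epiblast before implantation, these factors form a network in which most members bind the control regions of several others. LIF reaches the network through STAT3, which acts on Klf4 and Tfcp2l1, and inhibition of GSK3 relieves the repressor TCF7L1 from Esrrb. When LIF is withdrawn the network is dismantled, and formative and primed genes such as Otx2 and Fgf5 take its place. Several of the factors are known from other tissues as well: Esrrb and Klf5 in trophoblast, Klf4 in surface epithelia, Klf2 in endothelium, Nr5a2 in endoderm, and Prdm14 in primordial germ cells.

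Sequence upstream of the start site, from RefSeq on GRCm38.p6, was matched for 7 of the 10 genes, in 9 windows of 250 bases because Esrrb and Nr5a2 had a pair of starts each. Klf5, Tbx3 and Prdm14 had no matched window. Windows are shown for genes that the comparisons below turn on: Zfp42 at chr8:43307010-43307259 on the minus strand, Tfcp2l1 at chr1:118627695-118627944 on the plus strand and Klf4 at chr4:55532476-55532725 on the minus strand. Each is written 5′ to 3′ on the gene's strand and ends 1 base before the start, and capitals mark matches to the motifs searched.
Zfp42: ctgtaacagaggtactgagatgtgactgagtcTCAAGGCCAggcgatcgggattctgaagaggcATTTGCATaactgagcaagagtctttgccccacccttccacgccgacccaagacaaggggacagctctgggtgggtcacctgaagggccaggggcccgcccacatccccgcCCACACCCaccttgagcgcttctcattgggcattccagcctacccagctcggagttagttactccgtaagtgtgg
Tfcp2l1: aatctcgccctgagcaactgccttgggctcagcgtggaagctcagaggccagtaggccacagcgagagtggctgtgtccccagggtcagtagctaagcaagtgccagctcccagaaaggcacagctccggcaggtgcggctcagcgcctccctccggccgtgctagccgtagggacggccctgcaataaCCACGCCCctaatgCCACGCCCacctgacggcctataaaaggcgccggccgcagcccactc
Klf4: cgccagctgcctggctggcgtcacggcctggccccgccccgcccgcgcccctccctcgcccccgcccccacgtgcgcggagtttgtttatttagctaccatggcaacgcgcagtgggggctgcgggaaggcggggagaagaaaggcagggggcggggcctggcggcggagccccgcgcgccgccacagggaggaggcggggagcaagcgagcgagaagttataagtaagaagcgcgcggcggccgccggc
The motifs, searched on both strands, were TCAAGGNCA for ESRRB and NR5A2, GGGNGTGG for the KLF family, TTCCNGGAA for STAT factors, ATGCAAAT (the octamer), AATNCACA for FOXH1 and GTCTAGAC, the SMAD palindrome. In Zfp42 a match to TCAAGGNCA lay 218 to 210 bases before the start, one to the octamer 186 to 179 bases before it and one to the KLF motif 75 to 68 bases before it. Tfcp2l1 held 2 KLF matches, 61 to 54 and 47 to 40 bases before the start, and the second start of Nr5a2 held 1, 157 to 150 bases before it. No motif searched was found in the Klf4 window, and the 9 windows held no match to the STAT, FOXH1 or SMAD letters. Over 32817 RefSeq windows of this length, the share with a match was 1.39% for TCAAGGNCA, 15.9% for the KLF motif, 0.914% for the STAT motif, 1.6% for the octamer, 3.18% for FOXH1 and 0.168% for the SMAD palindrome. These matches describe letters in short windows and are not binding sites.

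The libraries held 35733249 to 53672980 expected counts, and levels below are CPM, counts scaled to a common library total with TMM factors, unless TPM, which also corrects for transcript length, is named. Smad2 RNA averaged 44.1 CPM in WT at day 4, 19.8 in Smad2-/- and 22.4 in Smad2/3DKO cells, and Smad3 RNA averaged 43.4 CPM in WT, 30.9 in Smad2-/-, 49.2 in Smad3-/- and 26.8 in Smad2/3DKO cells. Smad3 RNA was not called lower in the libraries labelled Smad3-/- (log2 difference 0.18, edgeR adjusted p = 0.607), so every direction drawn from them rests on the label. It was lower than in WT in Smad2-/- cells (-0.49, adjusted p = 0.0405), where Smad3 is not targeted, and Smad2/3DKO cells were not called apart from Smad2-/- cells (-0.2, adjusted p = 0.338). Genes of ribosomal proteins, which have short transcripts, took 12.46 to 16.79% of counts at day 0, 13.65 to 14.37% in Smad2-/- and 5.96 to 8.35% in the other day 4 libraries. The 2 Smad2-/- libraries differed in markers of the primitive streak and mesoderm, whose summed level was 157.3 CPM in replicate 1 and 12.91 CPM in replicate 2.

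The first comparison asked how far each factor falls in WT cells between day 0 and day 4. All 10 were lower at day 4, with no overlap between libraries in any of them (edgeR quasi-likelihood test, Benjamini-Hochberg adjustment over all genes tested), where 23.2% of all genes tested were lower. The share of all genes tested without such overlap was not counted, here or below, so a lack of overlap describes the values alone. Their median log2 fold change was -2.64, beside 0.1 for all genes. The size of the fall in CPM differed widely, from 3.18-fold for Nr5a2 to 24.9-fold for Nr0b1. On the log2(TPM + 1) scale all 10 differences were negative, from -0.38 to -3.51. There 9 were called, where 1487 of 14328 genes were called lower.

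**Figure D1:**
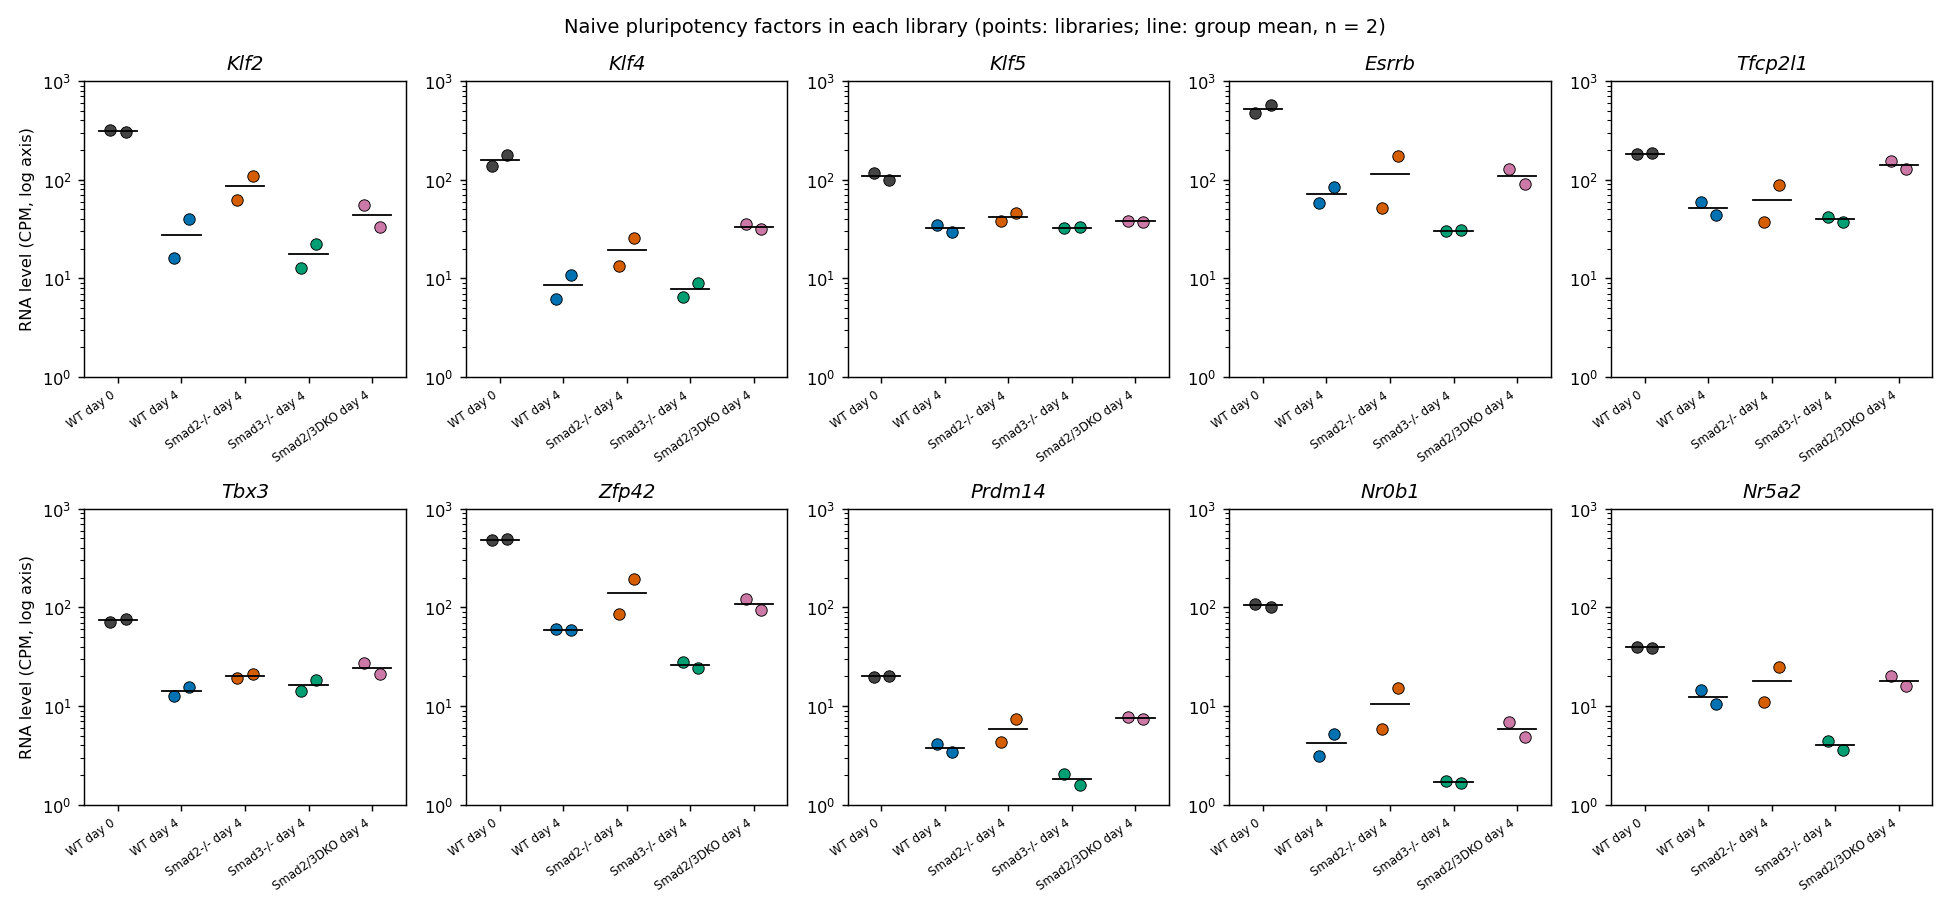
RNA level (CPM, log axis) of each of the 10 factors in each of the 10 libraries, 1 panel per gene; points are libraries (replicate 1 left), the line is the group mean (n = 2). In all panels the 2 WT day 0 libraries lie highest, and both Smad3-/- libraries lie below all others for Esrrb, Zfp42, Prdm14, Nr0b1 and Nr5a2.

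Transcript levels at day 0, compared between genes per length, spanned more than an order of magnitude. Zfp42, which encodes the zinc finger protein REX1 and is a common marker of naive cells, had the highest level at 244.9 ± 44 TPM (SD, n = 2). Klf2 followed at 150.2 ± 20 TPM and Esrrb at 107 ± 31 TPM. Nr0b1 (51.2 TPM), Klf4 (44.7 TPM) and Klf5 (26.9 TPM) were intermediate, and Tfcp2l1 (16.6), Tbx3 (12.95), Nr5a2 (7.18) and Prdm14 (6.71 TPM) were lowest. Order by level and order by fall were not the same: Nr0b1 and Klf4, with intermediate levels, fell most.

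Among the KLF factors, zinc finger proteins that share target sites, Klf4 stood at 137 and 176 CPM at day 0 and at 6.17 and 10.9 CPM in WT embryoid bodies (log2 fold change -4.2, SE 0.4, adjusted p = 8.27e-05). Klf2 went from 322 and 306 CPM to 16.1 and 39.6 CPM (-3.5, SE 0.5, adjusted p = 0.00054). The 2 WT day 4 libraries of Klf2 were 2.47-fold apart, the widest gap of any factor in that group. Klf5 went from 117 and 98.5 CPM to 34.8 and 29.8 CPM (-1.74, SE 0.18, adjusted p = 0.00011). Counted per transcript length, Klf2 had the highest mean in WT at day 4, 23.4 TPM, against 14.5 TPM for Klf5 and 4.21 TPM for Klf4.

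The nuclear receptors fell by unequal amounts. Nr0b1, which encodes DAX1, a receptor-like protein without a DNA-binding domain that can repress other factors, dropped from 107 and 102 CPM to 3.13 and 5.28 CPM (log2 fold change -4.64, SE 0.47, adjusted p = 0.000107). Esrrb, an orphan receptor that can stand in for Nanog in self-renewal, went from 477 and 571 CPM to 58.3 and 84.1 CPM (-2.88, SE 0.49, adjusted p = 0.00127). Nr5a2, or LRH-1, which binds a motif much like that of ESRRB, went from 40.03 and 39.15 CPM to 14.5 and 10.4 CPM (-1.67, SE 0.35, adjusted p = 0.00385). At day 4 WT cells kept 4.02% of the day 0 CPM of Nr0b1, 13.6% of Esrrb and 31.5% of Nr5a2. In TPM the shares were 7.12%, 25.7% and 73.3%, so the fall of Nr5a2 was small on that scale.

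Of the other 4, Zfp42 went from 480 and 492 CPM to 60.6 and 58.8 CPM (log2 fold change -3.03, SE 0.34, adjusted p = 0.000168). Tbx3, a T-box factor downstream of PI3K and MAPK signals, went from 71.4 and 76.3 CPM to 12.8 and 15.5 CPM (-2.39, SE 0.21, adjusted p = 6.5e-05). Prdm14, which recruits corepressors to Dnmt3b and to genes of FGF signalling, went from 19.7 and 20.3 CPM to 4.14 and 3.45 CPM (-2.4, SE 0.29, adjusted p = 0.000265). Tfcp2l1, a grainyhead-family factor that STAT3 induces, went from 180 and 188 CPM to 59.1 and 43.5 CPM (-1.84, SE 0.35, adjusted p = 0.00217). In bulk RNA fewer cells that hold a transcript and less of it per cell cannot be told apart, here or below.

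The second comparison asked whether the factors at day 4 depend on Smad2. In Smad2-/- embryoid bodies Klf2, Klf4, Zfp42 and Nr0b1 were higher than in WT, 4 of the 10 called, where 15.4% of all genes tested were higher. No factor was called lower, where 20.1% of all genes tested were, and the median log2 difference was 0.65, beside -0.01 for all genes; all 10 differences were positive in CPM, but 6 of them were negative on the log2(TPM + 1) scale, where none was called. None returned to its day 0 level. In CPM the median was 28.05% of day 0 against 16.3% in WT embryoid bodies, but in TPM it was 30.42% against 29.66%. All 10 stayed lower than in WT day 0 cells, where 9.27% of all genes tested were lower. That count was 6 without WT day 0 replicate 2, with all differences still negative.

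Klf2 stood at 62.5 and 109 CPM in Smad2-/- cells, against 16.1 and 39.6 in WT (log2 difference 1.63, SE 0.47, adjusted p = 0.0244). Both Smad2-/- libraries lay above both WT libraries. Zfp42 stood at 86.5 and 193 CPM, against 60.6 and 58.8 in WT (1.23, SE 0.32, adjusted p = 0.0162). Nr0b1 stood at 5.85 and 15.4 CPM, against 3.13 and 5.28 (1.34, SE 0.42, adjusted p = 0.0336), and its lower Smad2-/- library lay just above the higher WT one. Klf4 stood at 13.3 and 25.9 CPM, against 6.17 and 10.9 (1.2, SE 0.36, adjusted p = 0.0284), again with no overlap. Without WT replicate 1, Zfp42 kept its call and Klf2 (adjusted p = 0.069), Klf4 (0.0928) and Nr0b1 (0.117) lost theirs; without Smad2-/- replicate 2 all 4 lost them (0.0795 for Zfp42 to 0.315 for Nr0b1), and Nr0b1 also did without either day 0 library (0.0565 and 0.0563).

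The other 6 were not called in Smad2-/- cells. Klf5 (38.4 and 45.8 CPM), Tbx3 (19.1 and 20.9 CPM) and Prdm14 (4.32 and 7.38 CPM) had no library in common range with WT, with log2 differences of 0.38, 0.5 and 0.63 and adjusted p of 0.112, 0.0839 and 0.114 by edgeR. Esrrb (51.4 and 175 CPM), Tfcp2l1 (37.6 and 88.5 CPM) and Nr5a2 (11.0 and 24.8 CPM) overlapped with WT, because replicate 1 of Smad2-/- lay below both WT libraries for Esrrb and Tfcp2l1 and between them for Nr5a2.

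The 2 Smad2-/- libraries disagreed in size for the whole group of genes. Replicate 2 was higher for 10 of 10 factors, by a median of 2.09-fold and by up to 3.4-fold for Esrrb, whereas the median ratio of replicate 2 to replicate 1 was 1.09 in WT day 4, 0.984 in Smad3-/- and 0.795 in Smad2/3DKO. With replicate 1 left out 8 factors were called higher than in WT, with replicate 2 left out none was, and with WT replicate 1 left out 2 were. Replicate 2 was also the library with the low streak and mesoderm sum, and Dppa3, a maternal and germ cell factor of the naive network, stood at 84.35 CPM in it against 21.2 in replicate 1; their part in the difference was not tested. File names put replicate 1 of both groups in 1 series and replicate 2 in another: within the first, 7 of the 10 differences were positive with a median of 0.32, and within the second all 10 were, with a median of 1.17.

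**Figure D2:**
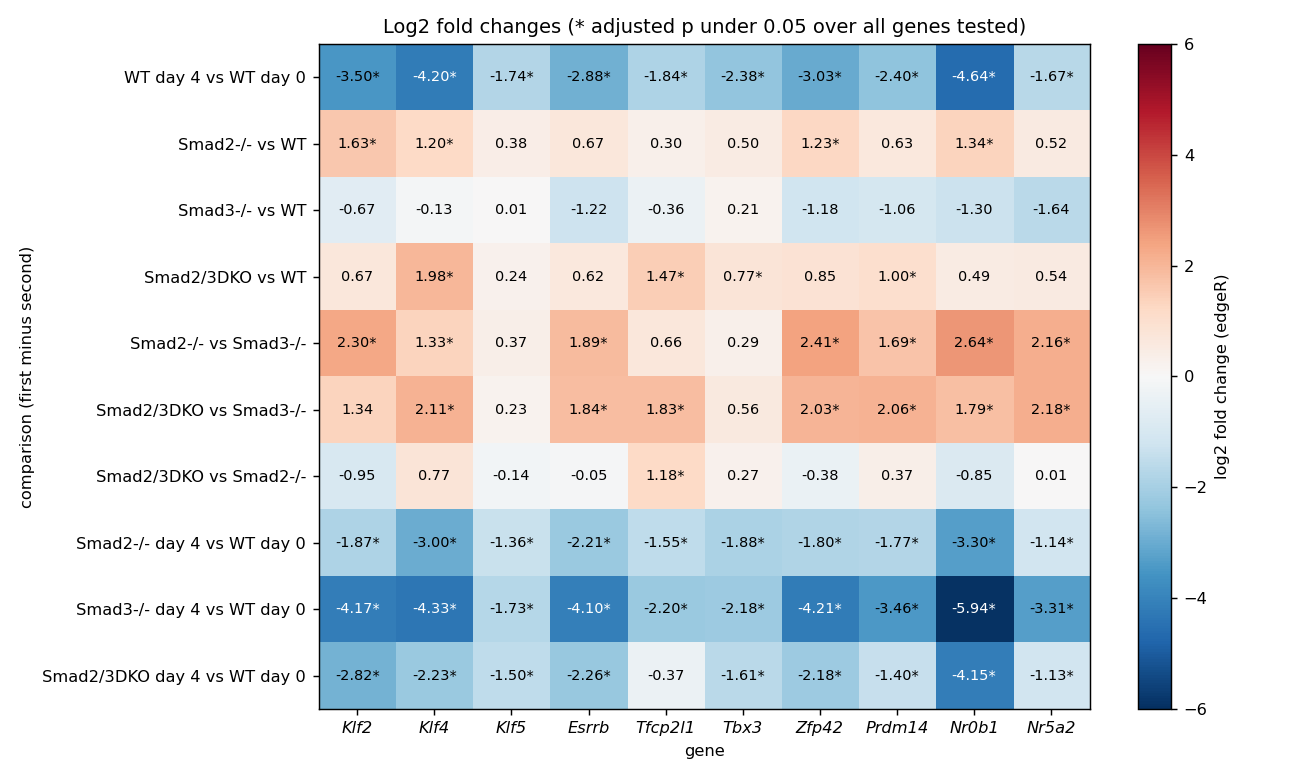
Log2 fold changes (edgeR; red positive, blue negative) of the 10 factors (columns) in 10 comparisons (rows, first group minus second); an asterisk marks an adjusted p under 0.05 over all 19470 genes tested. The rows against WT day 0 are negative throughout, the Smad2-/- and Smad2/3DKO rows against WT are positive throughout, and no cell of the Smad3-/- row against WT has an asterisk.

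The scale of the values bore on the Smad2-/- result. Between Smad2-/- and WT the median gene shifted by -0.51 on the log2(TPM + 1) scale. With each library centred on its own median, an alternative chosen after seeing the data, all 10 differences were positive and 5 were called. There 3694 of 14328 genes were called higher, and the median of all genes was 0.19. With a correction for transcript length and GC content, all 10 were again positive and 6 were called, where 2282 of 19470 genes were called higher. Klf4 and Zfp42 kept their call, Klf2 (0.8, adjusted p = 0.055) and Nr0b1 (0.85, adjusted p = 0.128) lost it, and Klf5, Tbx3, Nr5a2 and Tfcp2l1 gained it. Zfp42, Nr0b1 and Klf2 have the shortest transcripts of the 10 (1771, 1808 and 1847 bases) and Tfcp2l1 the longest (9188 bases).

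**Figure D3:**
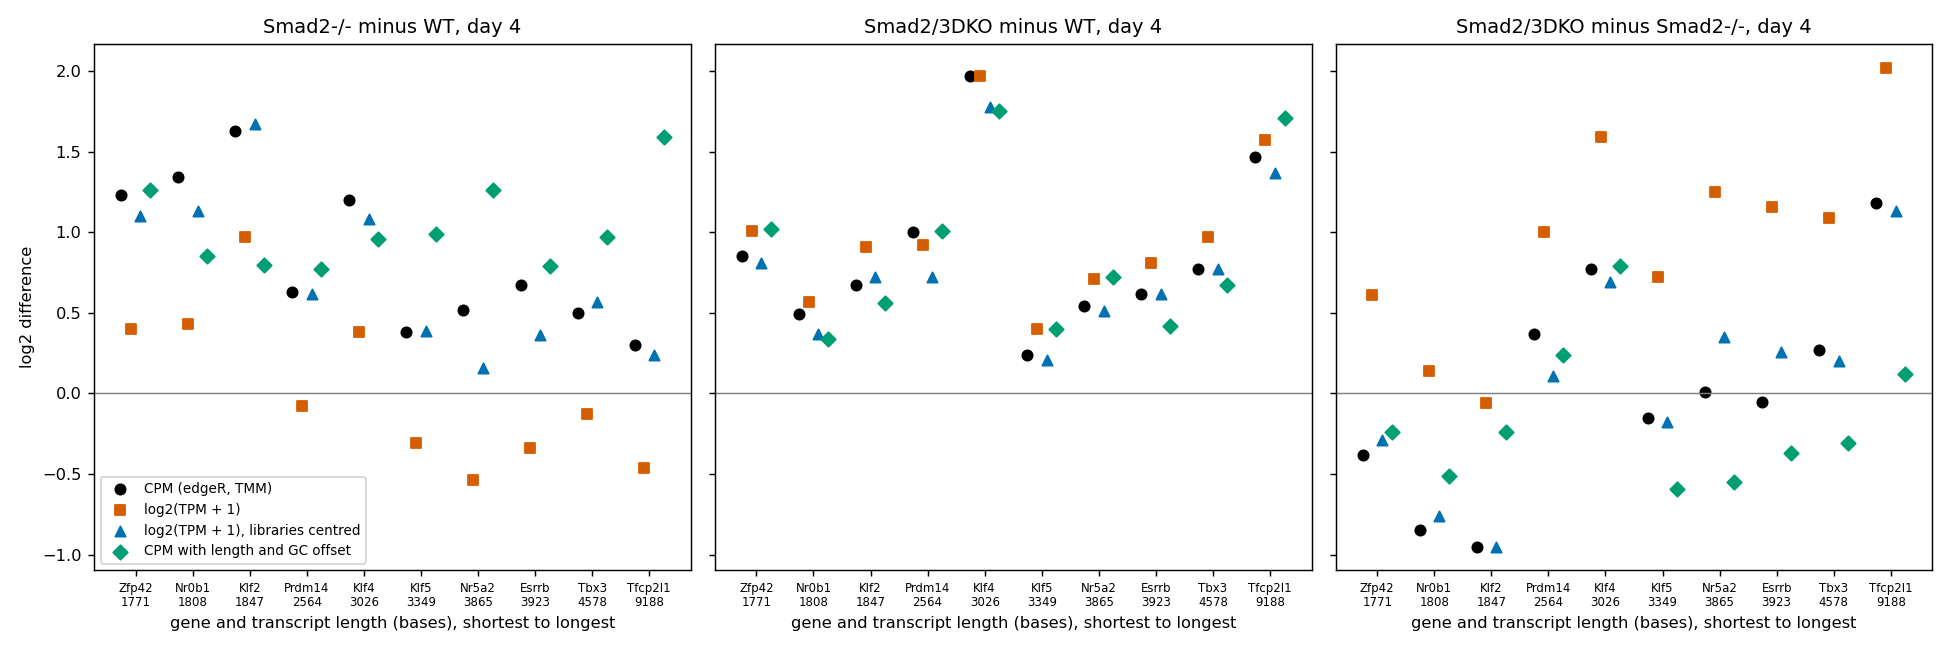
Log2 differences of the 10 factors, ordered by transcript length (bases), for 3 comparisons under 4 treatments of the same libraries: edgeR on CPM, log2(TPM + 1), log2(TPM + 1) with libraries centred, and CPM with a length and GC offset. Each factor's 4 values lie within 0.19 to 0.39 of each other for Smad2/3DKO against WT, and within 0.82 to 2.05 and 0.89 to 1.9 in the comparisons that involve Smad2-/-, with Tfcp2l1 spread most in both.

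In the libraries labelled Smad3-/- no factor was called against WT by edgeR, where 0.555% of all genes tested were called in either direction, 0.431% higher and 0.123% lower. The differences were mostly downward in value: 8 of 10 were negative, with a median log2 difference of -0.87 beside -0.04 for all genes, and 5 had an unadjusted p under 0.05. DESeq2 called 4 lower (Zfp42, Prdm14, Nr0b1 and Nr5a2), edgeR without a filter on low counts also called 4 (Esrrb, Zfp42, Nr0b1 and Nr5a2), and edgeR with the length and GC offset called Nr5a2. Of all genes, DESeq2 called 272 of 32651 lower, edgeR without a filter 410 of 32651, and edgeR with the offset 489 of 19470. In the 2 name series taken apart, 8 of 10 differences were negative in each, with medians of -0.65 and -0.96.

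Nr5a2 had the lowest p of the 10, at 4.42 and 3.58 CPM in Smad3-/- against 14.5 and 10.4 in WT (log2 difference -1.64, SE 0.36, edgeR adjusted p = 0.0791). Zfp42 stood at 28.0 and 24.6 CPM (-1.18, adjusted p = 0.123), Prdm14 at 2.04 and 1.58 CPM (-1.06, adjusted p = 0.13) and Nr0b1 at 1.75 and 1.65 CPM (-1.3, adjusted p = 0.189). Esrrb stood at 30.0 and 31.1 CPM, against 58.3 and 84.1 in WT (-1.22, adjusted p = 0.229). In these 5 genes, and in Tfcp2l1 (42.4 and 37.5 CPM), both Smad3-/- libraries lay below both WT libraries. How many of all genes tested did so was not counted.

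The KLF genes and Tbx3 did not share that pattern. Klf2 (12.7 and 22.3 CPM), Klf4 (6.55 and 9.01 CPM), Klf5 (32.1 and 33.0 CPM) and Tbx3 (14.3 and 18.3 CPM) overlapped with WT, with log2 differences of -0.67, -0.13, 0.01 and 0.21. Against WT day 0 all 10 were lower in Smad3-/- embryoid bodies, where 24.7% of all genes tested were lower. Their median was 14.75% in TPM and 7.45% in CPM of the day 0 level. Nr0b1 kept 1.63% of it, the smallest share of any factor in any group.

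In Smad2/3DKO embryoid bodies Klf4, Tfcp2l1, Tbx3 and Prdm14 were higher than in WT, 4 of the 10, where 10.8% of all genes tested were higher and 12.3% lower. All 10 differences were positive in value, with a median log2 difference of 0.72 beside -0.05 for all genes, and they were positive under every scaling tried, TPM included. Klf4 is the only factor that was called in both Smad2-/- and Smad2/3DKO cells; the 2 comparisons share the WT libraries.

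Klf4 stood at 35.6 and 31.4 CPM in Smad2/3DKO cells, against 6.17 and 10.9 in WT (log2 difference 1.98, SE 0.36, adjusted p = 0.00447). Tfcp2l1 stood at 156 and 129 CPM, against 59.1 and 43.5 (1.47, SE 0.34, edgeR adjusted p = 0.0139). Both libraries lay under the 180 and 188 CPM of day 0, a placement that changed with the scale, as given below. Tbx3 stood at 27.24 and 20.95 CPM, against 12.8 and 15.5 (0.77, SE 0.21, adjusted p = 0.0247), and Prdm14 at 7.74 and 7.42 CPM, against 4.14 and 3.45 (1.0, SE 0.28, adjusted p = 0.0328). None of these 4 had overlapping libraries. Without replicate 1 of Smad2/3DKO, Klf4 alone was called (Tfcp2l1 1.33, adjusted p = 0.0893; Tbx3 0.56, adjusted p = 0.205). Prdm14 was called without WT day 4 replicate 1 or either Smad2-/- library, and not without any other 1 library (adjusted p = 0.0532 to 0.145).

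The remaining 6 were not called against WT. Zfp42 (121 and 94.5 CPM; 0.85, adjusted p = 0.0819), Esrrb (127 and 91.0 CPM; 0.62, adjusted p = 0.375), Nr5a2 (20.0 and 16.1 CPM; 0.54, adjusted p = 0.301) and Klf5 (38.6 and 37.6 CPM; 0.24, adjusted p = 0.364) had both libraries above WT. Klf2 (55.9 and 32.8 CPM) and Nr0b1 (6.91 and 4.87 CPM) overlapped with it. Both Smad2/3DKO libraries belong to the first name series, so their comparison with WT replicate 1 is the one within a series: there all 10 differences were positive, with a median of 0.88.

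Against WT day 0, 9 of the 10 factors were lower in Smad2/3DKO embryoid bodies, where 26.0% of all genes tested were lower. The exception was Tfcp2l1, at 77.4% of its day 0 level (log2 difference -0.37, SE 0.34, edgeR adjusted p = 0.372), beside 27.9% in WT, 34.2% in Smad2-/- and 21.7% in Smad3-/- embryoid bodies. Counted in TPM it stood at 153.7% of day 0 (log2 difference on the log2(TPM + 1) scale 0.6, adjusted p = 0.118), and with the length and GC offset it was called lower than at day 0. Nr5a2, called lower in CPM at 45.7% of day 0, stood at 128.6% of day 0 in TPM. Its call needed both libraries of each group, with log2 differences of -0.97 to -1.3 when 1 was left out. On the log2(TPM + 1) scale 5 of the 10 factors were called lower than at day 0, where 1395 of 14328 genes were. Nr0b1 lay at the other end, at 5.63% of day 0, and Klf2 at 14.1%.

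The knockouts were then compared with each other. Klf2, Klf4, Esrrb, Zfp42, Prdm14, Nr0b1 and Nr5a2 were higher in Smad2-/- than in Smad3-/- cells (7 of 10; 15.7% of all genes tested were higher), by 1.33 (Klf4) to 2.64 (Nr0b1) on the log2 scale. Also 7 were higher in Smad2/3DKO than in Smad3-/- cells (7.53% of all genes tested), namely Klf4, Esrrb, Tfcp2l1, Zfp42, Prdm14, Nr0b1 and Nr5a2, by 1.79 (Nr0b1) to 2.18 (Nr5a2). In the second comparison no factor had overlapping libraries, while in the first Tfcp2l1 did. On the log2(TPM + 1) scale 3 were called in the first and 7 in the second, where 507 and 1218 of 14328 genes were called higher. Without replicate 1 of Smad3-/- the counts were 4 and 3, without its replicate 2 the second was 4, and without replicate 1 of Smad2/3DKO the second was 4.

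Between Smad2/3DKO and Smad2-/- cells 1 factor was called, Tfcp2l1, which was higher in Smad2/3DKO (log2 difference 1.18, SE 0.34, adjusted p = 0.0233), where 20.5% of all genes tested were higher and 19.1% lower. With the length and GC offset the Tfcp2l1 difference was 0.12 (adjusted p = 0.764), and without either Smad2/3DKO library, or without Smad2-/- replicate 1, it was not called (adjusted p = 0.119, 0.0649 and 0.0694). Klf2 (-0.95, SE 0.46, adjusted p = 0.124) and Nr0b1 (-0.85, SE 0.41, adjusted p = 0.127) had the most negative values, and Klf4 a positive one (0.77, SE 0.35, adjusted p = 0.107), none of them called. Klf2 was called lower in the compared groups alone (-0.96, adjusted p = 0.0489), Klf2 and Nr0b1 without a filter on low counts (adjusted p = 0.000275 and 0.00666), and Klf5 with the length and GC offset (-0.59, adjusted p = 0.014). On the log2(TPM + 1) scale 6 were called higher in Smad2/3DKO cells. There the median gene shifted by 0.65, and 7082 of 14328 genes were called higher.

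The last comparison asked whether loss of Smad2 had the same effect in Smad3-/- cells as in WT, as the difference of both log2 effects. Prdm14 and Nr5a2 were called, both with a larger effect in Smad3-/- cells (Prdm14 1.44, SE 0.41, adjusted p = 0.0392; Nr5a2 1.65, SE 0.49, adjusted p = 0.0461), where 11.3% of all genes tested were called in that direction. The log2 difference with Smad2 loss was 0.63 for Prdm14 on a WT background and 2.06 on a Smad3-/- background, and for Nr5a2 it was 0.52 and 2.18. With the length and GC offset Nr5a2 was not called (0.95, adjusted p = 0.156), Prdm14 was (1.26, adjusted p = 0.0468), and Klf5 was called in the other direction (-0.74, adjusted p = 0.0485). Leaving out any 1 library other than WT day 4 replicate 2 and Smad2-/- replicate 2 brought the count to 0, and without Smad2-/- replicate 2 it was 5. For Tfcp2l1 the value was 1.54 (edgeR adjusted p = 0.0522). Klf2 (-0.28, SE 0.64), Klf5 (-0.16, SE 0.24) and Tbx3 (0.06, SE 0.29) were not called either.

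Ordered by mean CPM, WT day 0 came first for all 10 factors, and it was separated from the next group by the test in 9 of them, Tfcp2l1 being the exception. In TPM, Tfcp2l1 and Nr5a2 had higher means in Smad2/3DKO cells (25.5 and 9.23) than at day 0 (16.6 and 7.18). Below day 0 neighbouring groups were mostly not separated: Klf4 differed between Smad2-/- and WT (adjusted p = 0.0284) and Tfcp2l1 between Smad2/3DKO and Smad2-/- (adjusted p = 0.0233), and no other neighbours did. Smad3-/- came last for 8 factors, and WT day 4 for Klf5 and Tbx3.

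The counts over gene lists that follow stand beside these shares of all genes tested: 28.9% higher and 23.2% lower in WT by day 4 and, against WT, 15.4% and 20.1% in Smad2-/-, 0.431% and 0.123% in Smad3-/- and 10.8% and 12.3% in Smad2/3DKO cells. The wider naive network was taken as 15 further genes. In WT 13 of 15 fell by day 4 (median log2 fold change -1.72), among them Zfp57, an imprint-protecting zinc finger gene (-2.75), Fgf4 (-2.68), Fbxo15 (-2.4) and Dppa5a (-3.09). In Smad2-/- cells 8 of 15 were higher than in WT and none lower (median 0.85), led by Dppa3, a maternal and germ cell factor (2.96), Fbxo15 (1.35), Zfp57 (1.09) and Dppa5a (1.53). In Smad3-/- cells 1 of 15 was called, Nanog, which was lower (-1.13, edgeR adjusted p = 0.0321), and the median was -0.73 beside -0.04 for all genes. In Smad2/3DKO cells Zfp57 was higher (1.32), and Pou5f1, which encodes the core factor OCT4 (-2.09), Nanog (-0.82) and Sall4 (-0.83) were lower. Between Smad2/3DKO and Smad2-/- cells 8 of these 15 were lower and none higher, led by Pou5f1 (-2.45), where 19.1% of all genes tested were lower and 20.5% higher. Of the 10 factors 1 was higher and none lower, which is no more than those shares. The median gene shifted by 0.65 in this comparison on the log2(TPM + 1) scale, where the list was not counted.

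Genes of the formative and primed state, which replace the naive network, mostly moved the other way. Utf1 is in this list and also among the naive partners above. Of 14, 10 rose and 1 fell in WT by day 4, among them Fgf5 (7.55), Sall2 (4.78), Dnmt3b (2.63) and Otx2 (2.32). In Smad2-/- cells 10 were lower than in WT and 1 higher, and in Smad2/3DKO cells 12 were lower and 1 higher, with Fgf5 at -2.08 and -5.97. Dnmt3l, a cofactor of the DNA methyltransferases that fell in WT (-2.3), was the 1 that was higher in both (1.67 and 1.45); it was named after its values were seen. In Smad3-/- cells Dnmt3b alone was called, and it was lower (-1.15). The median log2 difference of the 14 was -0.69 there, beside -0.04 for all genes.

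The inputs of the network were counted in a pair of lists. Of 9 genes of the LIF and STAT3 pathway, 4 fell and 2 rose in WT by day 4 (shares of all genes 23.2% and 28.9%), with the feedback inhibitor Socs3 falling by 3.79 on the log2 scale. Against WT, Smad2-/- cells had 3 higher and 3 lower (all genes 15.4% and 20.1%), Smad3-/- cells none called, and Smad2/3DKO cells 4 higher and none lower (all genes 10.8% and 12.3%). Those 4 were Lif itself (2.22), Jak1 (0.77), Socs3 (1.7) and Stat3 (0.65). Of 12 genes of WNT, MEK and SMAD inputs, 2 were higher and 5 lower in Smad2-/-, none was called in Smad3-/-, and 1 was higher and 5 lower in Smad2/3DKO cells. In Smad2-/- and Smad2/3DKO cells Id2, a target of BMP signals, was higher (2.13 and 2.46). The FGF and MEK target genes Dusp6, Spry4 and Etv5 were lower in both, Dusp6 with log2 differences of -1.17 and -2.61. In Smad3-/- cells they were not called, but averaged 64.5, 23.6 and 154.7 CPM, against 118.3, 43.7 and 292.2 in WT. Those levels lay near the 52.6, 22.7 and 125.2 CPM of Smad2-/- cells.

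Of 30 relatives of the factors 28 were tested, and in WT 10 rose and 6 fell by day 4 (all genes 28.9% and 23.2%), with Klf7 (1.99) and Klf3 (-1.68) as opposite examples. None was called higher and 6 were lower in Smad2-/- cells, among them Klf12 (-2.61) and Klf7 (-1.39), none was called in Smad3-/- cells, and 5 were higher and 2 lower in Smad2/3DKO cells, among them Klf6 (1.01) and Klf12 (-1.35). Of 6 genes of PRDM14 cofactors and DNA methylation, Tet2 and Tet3, which oxidise methylated cytosine, were higher in Smad2/3DKO cells (1.61 and 1.03), and Tet1 and Tet3 were lower in Smad2-/- cells (-1.21 and -1.27).

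Markers of other cell types that express some of these factors differed between the groups. All 12 trophoblast markers were higher than in WT in Smad2-/-, 11 in Smad2/3DKO and 4 in Smad3-/- cells: their summed level was 37.52 to 51.8 CPM in WT at day 4, 303.4 to 442.0 in Smad2-/-, 74.79 to 86.66 in Smad3-/- and 866.3 to 991.6 in Smad2/3DKO cells, beside 133.3 to 141.9 CPM at day 0. The 6 surface ectoderm markers summed to 201.0 to 379.3 CPM in WT, 1778 to 2593 in Smad2-/-, 612.1 to 781.1 in Smad3-/- and 1851 to 2324 in Smad2/3DKO cells, with 4, 1 and 5 of them higher than in WT. Krt8 and Krt18, keratins of simple epithelia that trophoblast and endoderm also express, made up nearly all of that sum (2576 of 2593 CPM in Smad2-/- replicate 1), and Krt5, Krt14 and Trp63 reached at most 1.192 CPM in any library. The 6 primordial germ cell markers summed to 69.88 to 74.5 CPM in WT, 139.7 to 220.5 in Smad2-/-, 56.55 to 60.01 in Smad3-/- and 220.4 to 235.7 in Smad2/3DKO cells, with 2, 0 and 1 of them higher. The 2 were Tfap2c, which is also in the trophoblast list, and Dppa3, which is also among the naive partners above, and the 1 was Tfap2c. Tfap2c and Dppa3 together held 82.45 and 168.7 CPM of the sums in Smad2-/- and 192.5 and 184.8 CPM in Smad2/3DKO cells. Extraembryonic endoderm markers went the other way, from 779.7 to 909.1 CPM in WT to 44.57 to 46.92 in Smad2-/- and 117.0 to 179.5 in Smad2/3DKO cells. Smad3-/- cells held 528.2 to 534.3 CPM, with none of the 11 called. The 6 endothelium markers summed to 33.61 to 34.71 CPM in WT and 27.06 to 42.91 in Smad2-/- cells. They summed to 37.97 to 41.85 CPM in Smad3-/- and 72.39 to 96.8 in Smad2/3DKO cells. Cdh5 held 42.77 and 34.31 CPM of the Smad2/3DKO sums. Against WT 1 endothelium marker was lower in Smad2-/-, none was called in Smad3-/-, and 1 was higher and 2 lower in Smad2/3DKO cells. Of 6 definitive endoderm markers 6 were lower in Smad2-/-, 1 in Smad3-/- and 4 in Smad2/3DKO cells, and none was higher. No marker of these lists was at 0 in any day 4 group, and the part of these cell types in the levels of the 10 factors was not tested.

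**Figure D4:**
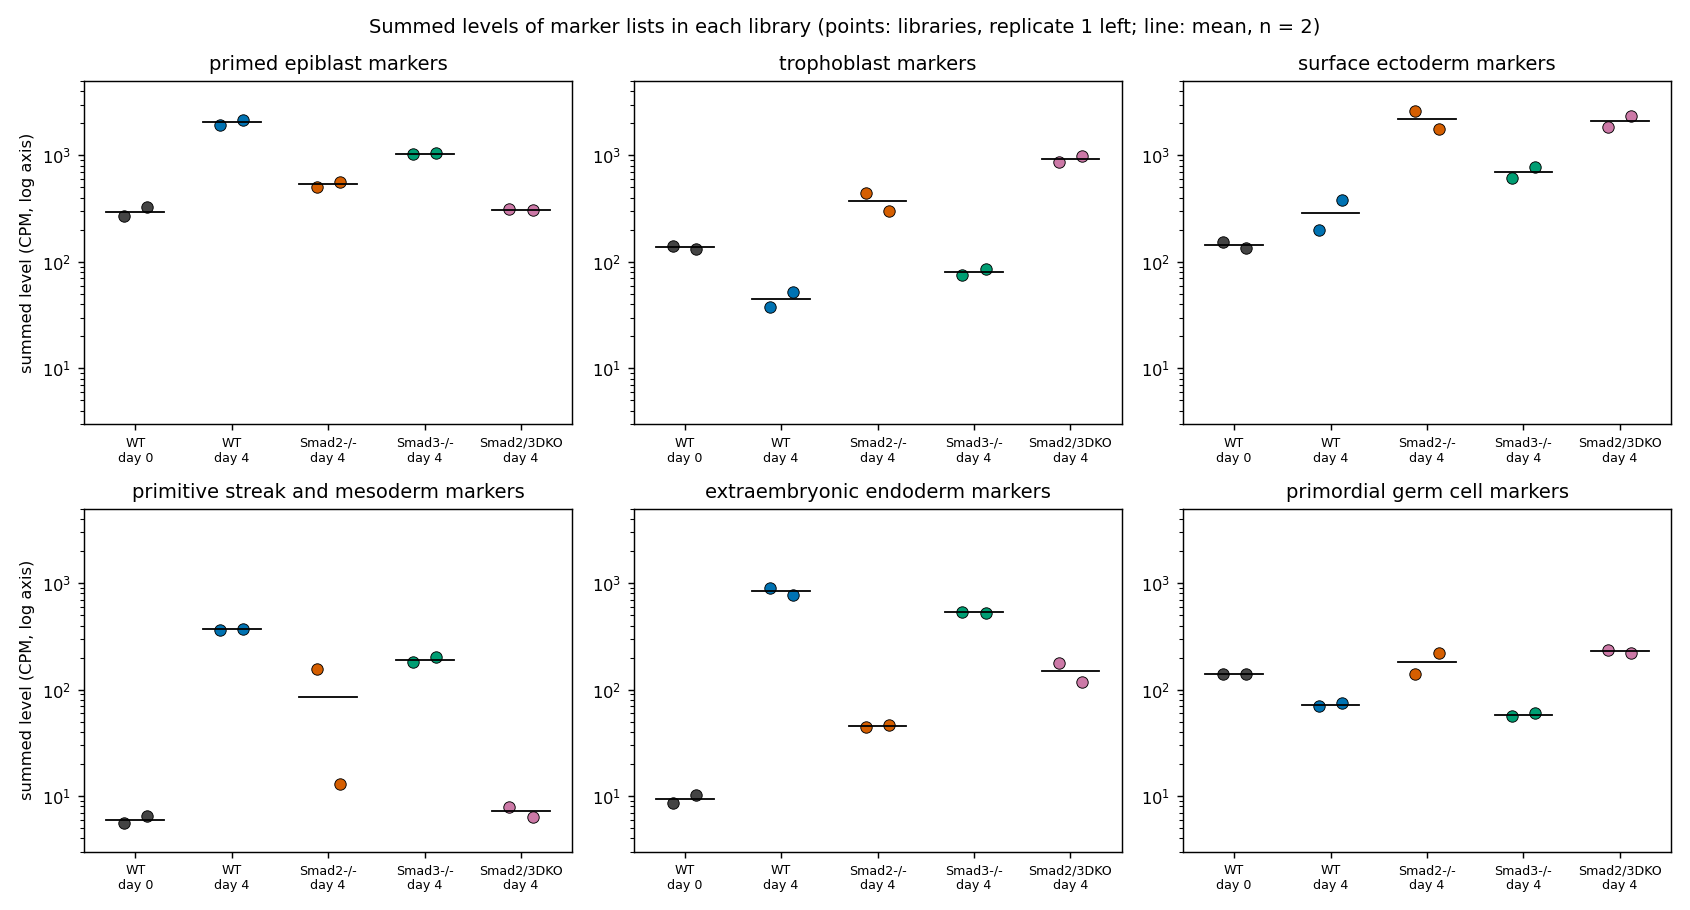
Summed level (CPM, log axis) of 6 marker lists in each library; points are libraries, replicate 1 left, and lines are group means (n = 2). Trophoblast and surface ectoderm sums are highest in Smad2-/- and Smad2/3DKO libraries, and the streak and mesoderm sum differs between the 2 Smad2-/- libraries (157.3 and 12.91 CPM).

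The median log2 difference from WT over the other tested genes of a factor's chromosome ran from -0.32 (chromosome X) to 0.14 (chromosome 8) in Smad2-/- cells, and from -0.17 (chromosome 14) to -0.00 (chromosome 12) in Smad2/3DKO cells. In the annotation Tbx3 overlaps its antisense gene Tbx3os1, which reached 0.598 CPM at most, and the 3 genes that overlap Tfcp2l1 reached at most 0.0511 CPM. Klf2 and Klf4, and Esrrb and Nr5a2, are relatives but not near-identical copies.

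Genes with the most similar pattern to each factor were sought among 11216 tested genes with a mean of at least 5 CPM, by Pearson's r of log2 CPM over the 10 libraries, of which the 2 day 0 libraries lie far from the rest. Zfp42 was closest to Bcat1 (r = 0.997), a branched-chain aminotransferase gene, and Nr0b1 to Tigar (0.996). Bcat1 was also the closest gene to Prdm14 (0.981) and the second for Esrrb (0.98), after Tdrd12. Among the 3 closest genes of each factor, Zfp42 was the only other factor, for Esrrb (0.974) and Prdm14 (0.98). Klf4 was closest to Mindy1 (0.985), Klf2 to Akap8l (0.985), Klf5 to Syce1 (0.986), Tbx3 to Slc28a1 (0.986), Nr5a2 to Dnajb6 (0.98) and Tfcp2l1, the factor with the lowest best match, to Stag3 (0.964).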

How the data were processed

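The authors deposited 1 gene table per RNA library. Expected counts (estimated counts of reads per gene) and TPM were both deposited as RSEM output, per the file headers, and FPKM was left out. The tools in the submitters' processing notes, without roles, are RSEM, STAR, Bowtie2, HOMER and FastQC 0.11.5, with the mm10 build; the annotation and strand setting are not given in the sources used here. Symbols and positions came from GENCODE M21 on mm10, matched by gene ID for 53274 of 53379 genes (2670 of them without the version). The 14 chromatin immunoprecipitation samples were not analysed here.

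Rounded expected counts of all 10 libraries entered 1 quasi-likelihood fit (edgeR 4.0.16 under R 4.3.3, F test, filterByExpr, TMM factors), which had 5 residual degrees of freedom and a common biological coefficient of variation of 0.248. A gene was called at a Benjamini-Hochberg adjusted p under 0.05 over 19470 genes; the SE is the log2 fold change divided by the square root of F. A prior count of 2 entered log2 CPM for the likeness of patterns only. Steps were tested on simulated data. Alternatives were RLE factors, library totals, no filter, a stricter filter (at least 1 CPM in 2 libraries), blocks, the compared groups alone, DESeq2 1.42.0, limma 3.58.1 on log2(TPM + 1) and log2(TPM + 0.1) for the 14328 genes whose mean TPM reached 1, a length and GC offset (mgcv 1.9.3) and each library left out. Centred log2(TPM + 1) was added after the data were seen.

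The 10 factors and all gene lists were chosen with earlier results of these data known. The genes named are the 10 factors, Smad2 and Smad3, at most 4 genes per list and comparison with the smallest adjusted p, and the 3 genes most like each factor. Named besides were Utf1, as a member of both the naive and the formative list, and Dnmt3l, after its values were seen. Some markers were named for their part in a marker sum, and Tbx3os1 because it overlaps Tbx3.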

Additional observations from a re-analysis of the deposited data

Results flagged for a closer look

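Prdm14 and Nr5a2 were set apart because the effect of Smad2 loss differed between backgrounds by a test of the difference itself. The log2 effect on a Smad3-/- background minus that in WT was 1.44 for Prdm14 (SE 0.41, edgeR adjusted p = 0.0392) and 1.65 for Nr5a2 (SE 0.49, adjusted p = 0.0461). These were 2 of the 10 factors, and 11.3% of all genes tested were called in that direction. Both genes had their lowest levels in the Smad3-/- libraries, at 2.04 and 1.58 CPM for Prdm14 and 4.42 and 3.58 CPM for Nr5a2, and the Smad3-/- label was not borne out by Smad3 RNA. With the length and GC offset the Prdm14 value was 1.26 (adjusted p = 0.0468) and the Nr5a2 value 0.95 (adjusted p = 0.156), which was not called. With the replicate number as a block Prdm14 was called (adjusted p = 0.0469) and Nr5a2 was not. Leaving out 1 library ended both calls except for WT day 4 replicate 2 and Smad2-/- replicate 2; the Nr5a2 value then ran from 1.18 to 1.81, with adjusted p from 0.0725 to 0.162.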

How the results depend on the processing

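Each result was recomputed with RLE factors, library totals, no filter, a stricter filter, blocks, the compared groups alone, DESeq2, 3 TPM scales, a length and GC offset, and each library left out. The count of factors called lower in WT by day 4 was 9 on both uncentred TPM scales and 10 otherwise. With library totals, on TPM scales and with centred TPM the median of all genes shifted by more than 0.1 in some comparisons: for WT day 4 against day 0 it lay at 0.38, 0.63 and -0.2. The cause of the changes below was not tested. With 2 libraries a group, a left-out library leaves its group with 1, assumed to vary like the others, and depth limits only the lowest levels, such as Nr0b1 and Prdm14 in Smad3-/-.

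Counts of called factors that moved by over 1.5 times follow, with the ranges over left-out libraries. For Smad2-/- against WT the count was 1 in the compared groups alone and 0 on both the TPM + 1 and TPM + 0.1 scales, and with a library left out it ran from 0 to 8. For Smad3-/- against WT it was 4 without a filter, 4 by DESeq2 and 1 with the length and GC offset, and 0 to 2 with a library left out; the 2 came without WT day 4 replicate 2 and without either Smad2-/- library. For Smad2/3DKO against WT it was 7 without a filter and 1 to 5 with a library left out. For Smad2-/- against Smad3-/- it was 3 on both TPM scales and 4 to 8 with a library left out, and for Smad2/3DKO against Smad3-/- 3 to 9. For Smad2/3DKO against Smad2-/- it was 2 with library totals and with the name series as a block, 2 (1 higher, 1 lower) in the compared groups alone and with the length and GC offset, 4 (2 higher, 2 lower) without a filter, 6 on both TPM scales and 0 to 3 with a library left out. Against WT day 0, Smad2/3DKO had 5 on the TPM + 1 and 4 on the TPM + 0.1 scale, and Smad2-/- 6 to 10 with a library left out, 6 without WT day 0 replicate 2. The interaction count was 4 without a filter and with the name series as a block, 6 on both TPM scales and 0 to 5 with a library left out; with the length and GC offset it was 2, 1 in each direction. Smaller moves included Smad2-/- against WT at 5 and Smad2/3DKO against WT at 5 with the name series as a block, and Smad2-/- against Smad3-/- at 10 with the length and GC offset and 8 without a filter. On the TPM + 1 scale 7082 of 14328 genes were called higher in Smad2/3DKO against Smad2-/-, and 5089 in the interaction.

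Replicate numbers are shared between groups, but no source says that they pair libraries: same-numbered libraries had correlations of -0.18 to 0.51 in their deviations. With the replicate number as a block the count was 2 for Smad2/3DKO against Smad2-/- and 1 for the interaction, 9 for Smad2-/- against WT day 0, and as before for the other comparisons; Esrrb turned to 0.1 in Smad2/3DKO against Smad2-/-.

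Differences that turned their sign follow, and 1 of them had been called in CPM. On the TPM + 1 and TPM + 0.1 scales Smad2-/- against WT gave -0.31 and -0.33 for Klf5, -0.34 and -0.37 for Esrrb, -0.46 and -0.53 for Tfcp2l1, -0.13 and -0.15 for Tbx3, -0.08 and -0.12 for Prdm14, and -0.54 and -0.67 for Nr5a2. Smad2-/- against Smad3-/- gave -0.4 and -0.43 for Klf5, -0.24 and -0.29 for Tfcp2l1, and -0.43 and -0.51 for Tbx3. Smad2/3DKO against Smad2-/- gave 0.72 and 0.76 for Klf5, which was called on both scales, 1.16 and 1.2 for Esrrb, 0.61 and 0.61 for Zfp42, and 0.14 and 0.18 for Nr0b1. Smad2/3DKO against WT day 0 gave 0.6 and 0.62 for Tfcp2l1, and 0.32 and 0.36 for Nr5a2, which was called lower in CPM. The interaction gave 0.42 and 0.44 for Klf2, and 0.63 and 0.67 for Klf5.

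With library totals the turned values were 0.01 for Klf4 in Smad3-/- against WT, -0.03 for Tbx3 in Smad2-/- against Smad3-/-, 0.16 for Klf5 and 0.27 for Esrrb in Smad2/3DKO against Smad2-/-, 0.02 for Tfcp2l1 in Smad2/3DKO against WT day 0, and 0.01 for Klf5 in the interaction. With the name series as a block they were 0.41 for Esrrb in Smad2/3DKO against Smad2-/- and 0.07 for Klf2 in the interaction, and with centred TPM 0.26 and, for Tbx3 in the interaction, -0.03. With the length and GC offset they were -0.31 for Tbx3 and -0.55 for Nr5a2 in Smad2/3DKO against Smad2-/-, and 0.75 for Klf2 and -0.45 for Tbx3 in the interaction.

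With 1 library left out, signs turned within these ranges: in Smad2-/- against WT Esrrb -0.47 to 1.3, Tfcp2l1 -0.45 to 0.79 and Nr5a2 -0.18 to 0.99, each negative without Smad2-/- replicate 2; in Smad3-/- against WT Klf2 -1.16 to 0.12, Klf4 -0.46 to 0.33 and Klf5 -0.1 to 0.15; in Smad2-/- against Smad3-/- Tfcp2l1 -0.09 to 1.15; in Smad2/3DKO against Smad2-/- Esrrb -0.69 to 1.08, Zfp42 -0.85 to 0.31, Nr0b1 -1.39 to 0.0 and Nr5a2 -0.46 to 0.71; and in the interaction Klf2 -1.08 to 0.2, Tbx3 -0.14 to 0.25 and Nr0b1 -0.09 to 1.31.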
